A study of Rattus norvegicus with 6 samples.

Results

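Voltage-gated sodium channels carry the inward current of the action potential upstroke, and 5 genes of their subunits were followed in the rat left atrium: Scn4a and Scn7a of the α subunit family, and Scn2b, Scn3b and Scn4b of the β subunits. The 5 were chosen by name, not by a rule that takes in every subunit gene on the array, and each was read from the probe set whose only gene symbol in the array annotation is its own. Each has 1 such probe set, among 14506 genes of the array with a probe set of their own. The arrays compare 3 rats exposed to rapid atrial pacing (RAP, cycle length 70 ms) with 3 rats under control pacing (cycle length 140 ms), for 48 hours, with 1 array per left atrium and no pooling. All 6 were adult male Sprague-Dawley rats of 250 to 320 g that carried a right atrial electrode and drank the β-blocker atenolol, so that the control atria were paced, operated and drug-treated as well. The rats were operated, recovered and paced as RAP and control pairs, called pairs 1 to 3. Values are log2 signals made by robust multiarray averaging (RMA), a difference of 1 is a factor of 2, and signals of different genes cannot be ranked against each other because each probe set has its own response.

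An α subunit forms the pore and the voltage sensor, and the β subunits are single-pass membrane proteins with an immunoglobulin fold that adjust gating, surface expression and adhesion. The proteins of Scn2b and Scn4b are joined to the α subunit by a disulfide bond, whereas that of Scn3b binds without one. The Scn4b protein has a cytoplasmic tail that can block the open pore and so give a resurgent current. Scn4a encodes the main α subunit of skeletal muscle, Nav1.4. Scn7a encodes Nax, a member of the α family that responds to extracellular sodium rather than to voltage and is known from glia, Schwann cells among them. In the atrium, sodium current sets conduction velocity, and inherited variants of β subunit genes have been linked to atrial fibrillation.

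Scn2b and Scn4b are direct neighbours on the same strand of chromosome 8 in the rat RefSeq annotation, and their start regions are shown because Scn4b passed the thresholds described below and Scn2b did not. Each sequence runs from 250 bases before to 50 bases after the start in the GRCr8 assembly, and capitals mark GGAAA or its reverse TTTCC, the core read by the calcineurin-dependent factor NFAT. Scn4b (chr8:54343623-54343922, plus strand) holds 24 CpG dinucleotides and 70.0% G and C, and Scn2b (chr8:54322133-54322432, plus strand) 2 and 39.0%, against medians of 7 and 51.7% over 33469 promoters of the same length. The start region of Scn7a (chr3:71846235-71846534, minus strand), the other gene with a wide spread over the arrays, holds 2 CpG dinucleotides.
Scn4b: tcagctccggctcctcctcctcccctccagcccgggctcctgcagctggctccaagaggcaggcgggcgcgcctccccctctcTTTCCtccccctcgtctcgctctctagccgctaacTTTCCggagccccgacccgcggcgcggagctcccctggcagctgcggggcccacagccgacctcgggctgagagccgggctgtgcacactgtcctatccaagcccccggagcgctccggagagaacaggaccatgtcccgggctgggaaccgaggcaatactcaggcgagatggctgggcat
Scn2b: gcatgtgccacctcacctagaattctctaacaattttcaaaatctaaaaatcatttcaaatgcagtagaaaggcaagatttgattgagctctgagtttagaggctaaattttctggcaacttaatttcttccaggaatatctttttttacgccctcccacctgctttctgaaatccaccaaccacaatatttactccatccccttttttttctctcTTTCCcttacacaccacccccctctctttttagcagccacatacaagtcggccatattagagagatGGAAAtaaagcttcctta
Scn7a: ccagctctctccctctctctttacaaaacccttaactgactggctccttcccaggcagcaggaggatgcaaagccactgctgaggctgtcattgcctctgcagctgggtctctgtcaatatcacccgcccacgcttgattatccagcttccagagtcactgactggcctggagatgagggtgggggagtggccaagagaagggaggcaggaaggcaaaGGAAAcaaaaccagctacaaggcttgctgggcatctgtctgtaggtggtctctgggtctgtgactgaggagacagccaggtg
The core occurs in 2 places in Scn4b, in 2 in Scn2b, in 1 in Scn7a and in 0 in Scn4a, and 62.7% of all promoters hold at least 1 on either strand. The windows of all 4 genes did not hold the forkhead core TGTTTAC on either strand, which 3.78% of promoters hold. Nor did they hold the T-box half-site AGGTGTG, found on either strand of 5.61% of promoters. The same was true of the GATA core AGATAA, found in 11.6% of promoters on either strand. On the gene's own strand the TATA box TATAAA was missing from all 4 windows, and 8.8% of promoters hold it there. These counts describe letters and not bound sites.

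Scn4b was also measured by RT-qPCR in the study, in data not analysed here, and the primers of that assay are shown because they identify it.
Scn4b forward primer: ttcctccaagtggttgataaattg
Scn4b reverse primer: agcttcttcagcaacaggatgc

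The 6 arrays had median log2 signals of 5.82 to 5.85, and 62.6 to 63.8% of their probe sets were brighter than 5 on the log2 scale. The study analysed what passed this signal level on 1 array or more. Myl7, the atrial myosin light chain, lay between 13.6 and 13.8 on all 6 arrays. Control 3 stood apart in Myl2, the ventricular myosin light chain, at 8.60 against 4.28 to 4.89 on the other 5, and in erythroid markers. For Scn4b and Scn7a, and for several other genes whose call turned, values are also given without control 3. In whole tissue, fewer cells of a type and less RNA per cell cannot be told apart.

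Of the 5 genes, 4 exceeded the signal level of 5 in at least 1 array, and Scn3b stayed under it on all 6. The RAP and control arrays were set against each other in a limma fit that held the pair as a block. Rose and fell are used below for genes with an unadjusted limma p under 0.05 together with a fold change over 1.3, which are the study's own thresholds. Of the 4 genes, 1 fell (Scn4b) and 0 rose, whereas over all 11237 genes above the signal level 3.45% fell and 2.94% rose (6.39% in all, and 5.93% of probe sets). By limma the smallest p adjusted over the 19907 probe sets above the level was 0.756. The study picked Scn4b for RT-qPCR from these same arrays, so its fall here is not independent evidence.

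**Figure D1:**
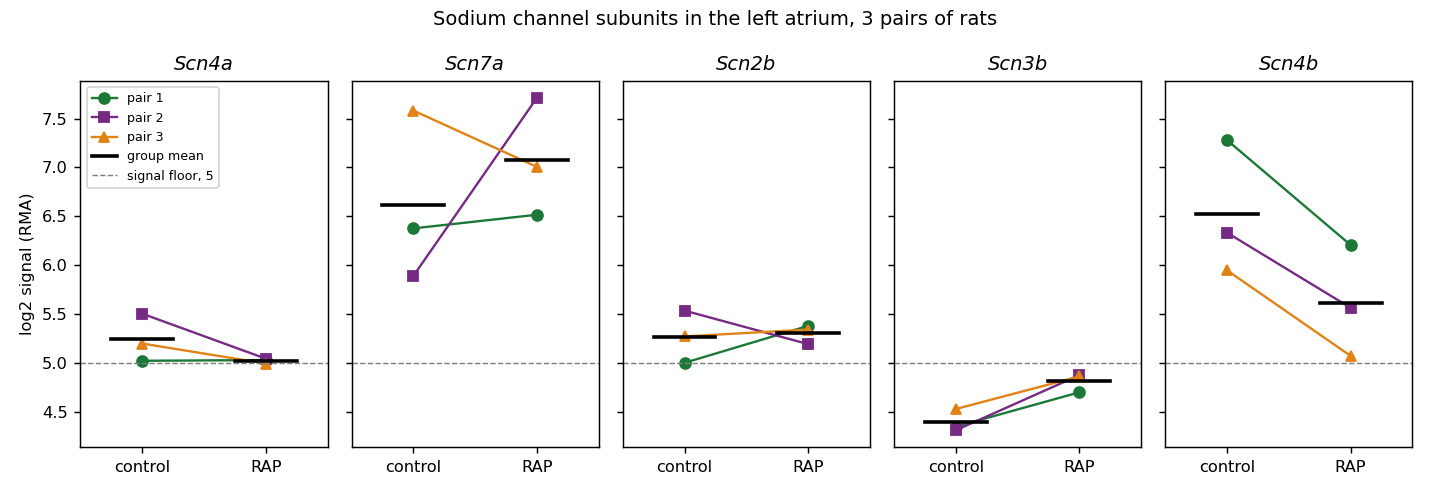
Log2 signal of the 5 sodium channel subunit genes on the 6 arrays, control pacing at left and RAP at right in each panel, with lines joining each pair, group means as black bars and the signal level of 5 dashed. Scn4b is lower with RAP in all 3 pairs, Scn7a moves in both directions, and Scn3b lies under 5 on every array.

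Among the β subunits, Scn4b had the largest change. Its log2 signal was 7.28, 6.33 and 5.95 in controls 1, 2 and 3 and 6.21, 5.56 and 5.07 in RAP 1, 2 and 3. The control was the higher array in each pair, and the groups overlapped, since RAP 1 lay above control 3. The differences, RAP minus control, were -1.08, -0.77 and -0.88 in pairs 1, 2 and 3. The mean of -0.91 (SD of the pair differences 0.155, n = 3) corresponds to a 1.88-fold lower signal, with a 95% interval of 1.46 to 2.41-fold (limma SE 0.14, unadjusted p = 0.00147, adjusted p = 0.756; exact sign-flip p = 0.25).

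The spread of Scn4b between rats of a group was wider than its change within pairs. The controls spanned 1.33 and the RAP arrays 1.14 log2 units, with SDs of 0.686 and 0.569, and both groups ran in the order pair 1, pair 2, pair 3. Without the pair as a block the change was not past the thresholds (limma SE 0.41, p = 0.0615; 7.74% of genes passed in that fit), and an exact permutation test of the 3 against 3 arrays gave a two-sided p of 0.2, where the smallest possible is 0.1. Of the 11237 genes, 147 had a larger fall, 23.1% had a smaller SD of the pair differences, and 97.7% had a smaller span over the 6 arrays. With both arrays of pair 3 left out, control 3 among them, the change was -0.92 (limma SE 0.16, adjusted p = 0.168), and with control 3 alone left out, in a fit without the pair, -1.19 (SE 0.41, adjusted p = 0.294). It was -0.82 without pair 1 and -0.98 without pair 2, and Scn4b passed both thresholds each time. Leaving out control 1 alone, in a fit without the pair, gave -0.53 (limma SE 0.34, adjusted p = 0.924), which did not pass.

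**Figure D2:**
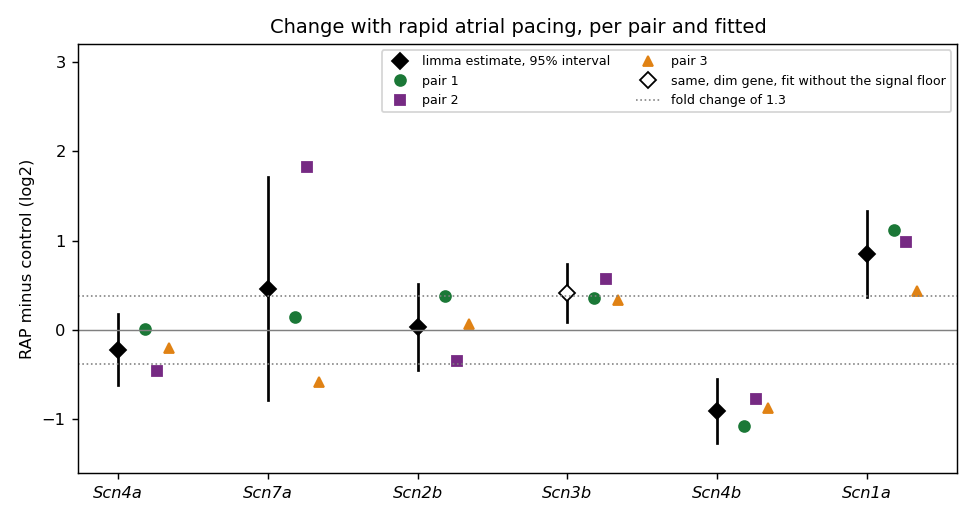
RAP minus control in log2 units for each of the 3 pairs (coloured symbols) and the limma estimate with its 95% interval (diamonds and bars), with dotted lines at a fold change of 1.3, for the 5 genes and for Scn1a. The 3 values of Scn4b lie between -1.08 and -0.77, and those of Scn7a between -0.58 and 1.83.

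Scn2b, the neighbour of Scn4b, did not pass. Its log2 signal was 4.9986, 5.5334 and 5.269 in controls 1, 2 and 3 and 5.3774, 5.19 and 5.3395 in RAP 1, 2 and 3, so that the RAP values lay within the range of the controls. The pairs differed by 0.38, -0.34 and 0.07, with a mean of 0.04 and a 95% interval of -0.45 to 0.52 (limma SE 0.18, adjusted p = 0.970). This interval does not exclude changes of up to 1.43-fold. Its change differed from that of Scn4b by 1.45, 0.43 and 0.95 in pairs 1, 2 and 3 (mean 0.94, SE 0.297), with an exact sign-flip p of 0.25, the smallest that 3 pairs allow (0.417 adjusted over the 10 comparisons between members).

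Scn3b was dim, and was higher with RAP in each pair. It stood at 4.34, 4.31 and 4.53 in controls 1, 2 and 3 and at 4.70, 4.87 and 4.86 in RAP 1, 2 and 3, and the groups did not overlap (15.4% of the genes above the signal level did not overlap either). Because none of the 6 signals reached 5, it was not tested by the study's criteria. In a fit without the signal level the mean difference of 0.42 (SD of the pair differences 0.129, n = 3; limma SE 0.13, adjusted p = 0.792) was a fold change of 1.33, just past 1.3, and the unadjusted p passed as well. In that fit 5.83% of 14506 genes passed and 2.79% rose. It no longer passed after quantile normalization (0.37) or cyclic loess (0.36), nor without pair 1 or pair 2.

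Of the β subunits, Scn3b and Scn4b were the ones with the same sign in all 3 pairs, in opposite directions. Over all genes above the signal level 14.3% were higher and 14.1% lower in all 3. The changes of Scn3b and Scn4b differed by 1.43, 1.34 and 1.21 in pairs 1, 2 and 3 (mean 1.32, SE 0.0625, exact sign-flip p = 0.25).

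Of the α family, Scn7a varied most and had no common direction. Its log2 signal was 6.38, 5.89 and 7.58 in controls 1, 2 and 3 and 6.52, 7.71 and 7.01 in RAP 1, 2 and 3. Control 3 and RAP 2 were the high arrays and control 2 the low one, and the groups overlapped. RAP minus control was 0.14, 1.83 and -0.58 in pairs 1, 2 and 3, a mean of 0.46 with a 95% interval of -0.79 to 1.71 (limma SE 0.48, adjusted p = 0.845). The SD of these differences, 1.23, was larger than that of 97.3% of the 11237 genes. The direction depended on which pair was included. Without pair 2 the change was -0.22, and without pair 3 it was 0.98, neither past the thresholds. With control 3 alone left out, in a limma fit without the pair, it was 0.95 (SE 0.36, adjusted p = 0.343) and passed. In that fit 1731 of the 11237 genes passed, against 718 with all arrays and the pair as a block. With all arrays and no block 870 passed.

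Scn4a was close to the signal level of 5 on every array. It stood at 5.02, 5.50 and 5.20 in controls 1, 2 and 3 and at 5.03, 5.04 and 4.99 in RAP 1, 2 and 3. The RAP arrays were within 0.0503 log2 units of each other. RAP 3 lay below every control, RAP 1 and RAP 2 lay just above control 1, and the groups overlapped. The pair differences of 0.01, -0.46 and -0.21 had a mean of -0.22 with a 95% interval of -0.62 to 0.18 (limma SE 0.15, adjusted p = 0.796), and did not pass. Markers of skeletal muscle, where Scn4a is the main channel, had 1 of 14 genes past the thresholds, Myl1, a fast myosin light chain (1.71, SE 0.63, with 3.38, 0.10 and 1.64 in pairs 1, 2 and 3), and a median change of 0.01.

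**Figure D3:**
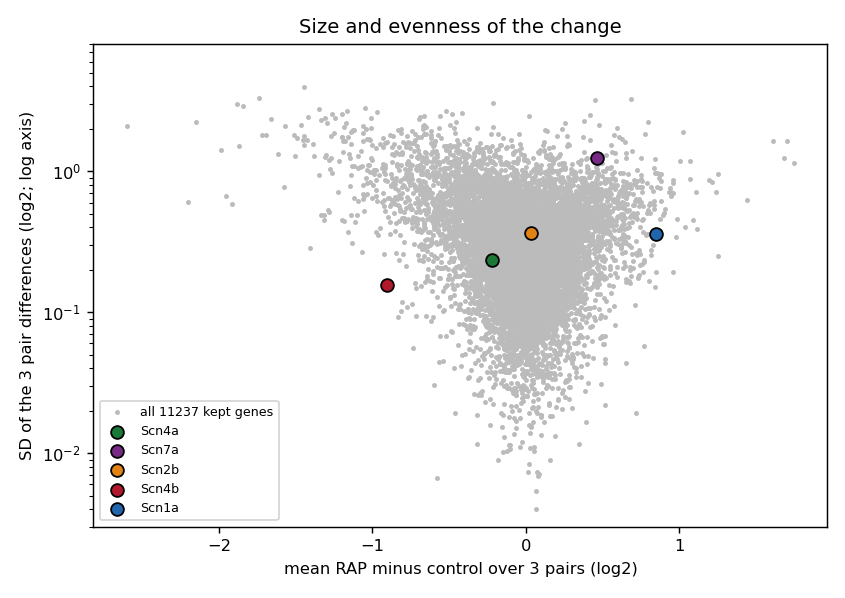
Mean RAP minus control over the 3 pairs (log2) against the SD of the 3 pair differences (log axis) for the 11237 genes above the signal level (grey), with Scn4a, Scn7a, Scn2b, Scn4b and Scn1a marked. Scn4b combines a mean of -0.91 with an SD of 0.155, while Scn7a has a mean of 0.46 and an SD of 1.23.

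A further 6 α subunit genes had a probe set of their own, and 1 of them, Scn1a, exceeded the signal level and rose. Scn1a encodes Nav1.1, an α subunit best known from neurons that the heart also expresses. Its log2 signal was 3.89, 4.37 and 4.49 in controls 1, 2 and 3 and 5.01, 5.36 and 4.93 in RAP 1, 2 and 3, so that the groups did not overlap. Of the genes above the signal level 15.4% did not overlap either. The gene was kept only through RAP 1 and RAP 2, the arrays in which it is highest, and all 3 controls were under the level of 5. The change was 0.85 (limma SE 0.18, adjusted p = 0.756), with 1.12, 0.99 and 0.44 in pairs 1, 2 and 3. It was not past the thresholds without pair 1 or by the methods' paired t-test on the log2 values, an alternative to limma. Scn2a, Scn3a, Scn8a, Scn10a and Scn11a stayed under 5 on all 6 arrays and were not tested by the study's criteria. Scn11a too was higher with RAP in all 3 pairs without overlap, at means of 3.705 in controls and 3.857 in RAP. In a fit without the signal level its change was 0.15 (limma SE 0.12, adjusted p = 0.838) and did not pass. The share of 15.4% covers only genes above the level, and Scn11a is not among them.

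Proteins that anchor, bind or modulate cardiac sodium channels were looked up as a list of partners, with 33 genes above the signal level. Of these 5 rose and 0 fell by limma, against 2.94 and 3.45% of all genes. Of 33 changes 24 were above 0, with a median of 0.24 against -0.0074 over all genes. The list was chosen with earlier results of these data known, so these counts are not independent evidence. Xirp2, which binds actin at intercalated discs, rose by 1.21 on the log2 scale (SE 0.34). Pkp2, the desmosomal plakophilin, rose by 0.80 (SE 0.18), and Cav3, the muscle caveolin, by 0.80 (SE 0.23). The adaptor Ank2, ankyrin-B, rose by 0.62 (SE 0.23), and Kcnj2, the inward rectifier Kir2.1 that forms complexes with sodium channels, by 0.49 (SE 0.13). Kcnj2 was another of the genes the study picked from these arrays. Ank3, ankyrin-G, which anchors sodium channels at the intercalated disc, had 0.37, 0.64 and -0.20 in pairs 1, 2 and 3 and did not pass (0.27, SE 0.20), although it did without pair 3 (0.51, SE 0.15).

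The pairs were uneven in these partners. Pair 3 gave the smallest rise in all 5, with 0.26 in Xirp2, 0.53 in Pkp2, 0.22 in Cav3, 0.12 in Ank2 and 0.45 in Kcnj2. By limma 1 partner rose without pair 1 (Pkp2), 2 without pair 2 (Pkp2 and Xirp2) and 14 without pair 3. Of all 11237 genes, 164, 378 and 2488 passed in these fits, against 718 with all arrays. By the methods' paired t-test only Kcnj2 passed. Without control 3 alone, in a fit without the pair, 9 partners rose, 4 of them among the 5 (all but Kcnj2, at 0.39, SE 0.21). In that fit 1731 of all genes passed, against 870 with all arrays and no block. Over the 6 arrays the partner list stood at -0.16, -0.28 and 0.04 in controls 1, 2 and 3 and at 0.11, 0.27 and 0.02 in RAP 1, 2 and 3, as a mean deviation from each gene's mean. The 12 atrial cardiomyocyte markers stood at -0.16, -0.26, 0.03, 0.17, 0.35 and -0.14 on the same arrays, and their part in the rise of the partners was not tested.

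Enzymes that cut β subunits, and transcription factors known to act on sodium channel genes, were looked up in the same way. Of 8 secretase and related genes above the signal level 0 rose and 0 fell by limma, with a median change of -0.17. Bace1, the secretase that cleaves β subunits, had 0.30, 0.06 and -0.27 in pairs 1, 2 and 3 (0.03, SE 0.17). Of 23 transcription factors 0 rose and 1 fell, Foxo3 (-0.47, SE 0.17, with -0.69, -0.58 and -0.13 in pairs 1, 2 and 3), which did not pass without pair 1, without pair 2 or by the methods' paired t-test. These counts depended on pair 3, as did those over all genes. In limma fits 4 factors rose and 3 fell without pair 3, and 1 rose and 5 fell without control 3 alone. Without RAP 3 alone 3 rose and 1 fell, and with array weights 3 rose and 6 fell. Of all 11237 genes, 2488, 1731, 1144 and 2650 passed in the same fits, in that order, against 718 with all arrays unweighted and blocked. The fits without control 3 or RAP 3 alone had no pair block, and 870 genes passed with all arrays and no block. Tbx5, the T-box factor of atrial myocytes that activates sodium channel genes, had 0.69, 0.81 and -0.14 (0.46, SE 0.23) and did not pass with the pair as a block. It passed without the block, with array weights, without pair 3 (0.75, SE 0.14), without control 3 alone (0.60, SE 0.19) and without RAP 3 alone, 5 of 18 alternatives.

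**Figure D4:**
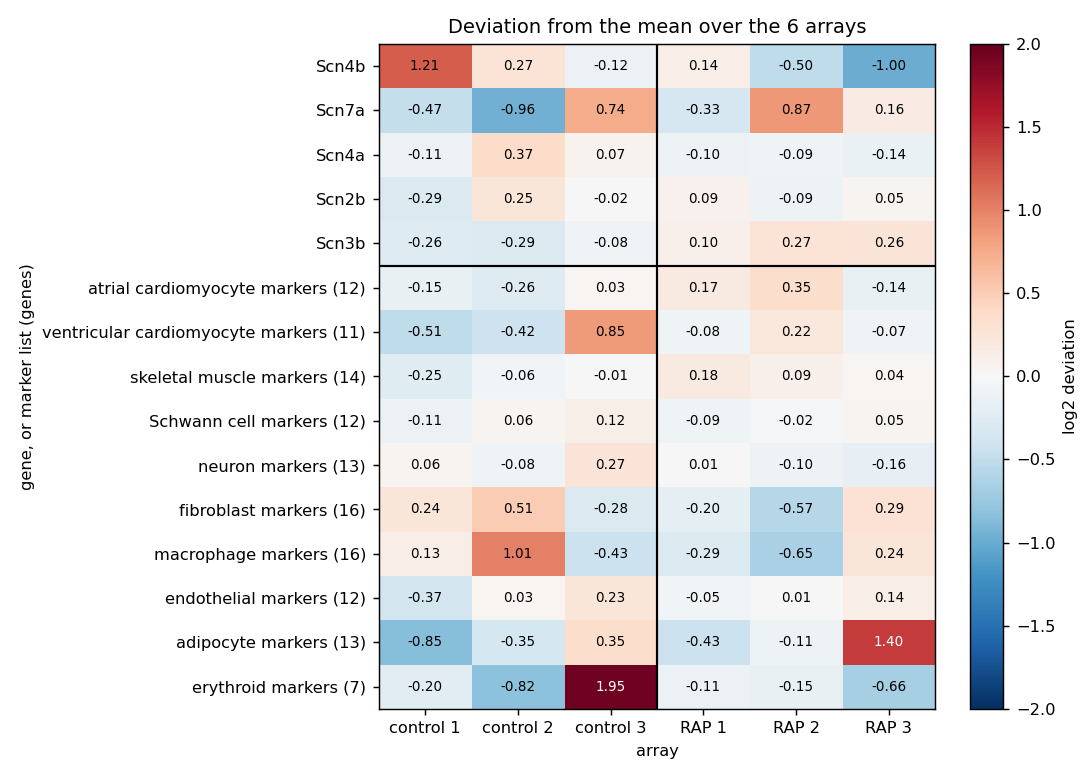
Log2 deviation of the 5 genes and of 10 lists of cell type markers from their means over the 6 arrays (rows, with the number of genes per list in parentheses), controls at left and RAP at right. Scn4b lies at 1.21 in control 1 and -0.996 in RAP 3, the adipocyte list runs from -0.85 to 1.40 on the same arrays, and control 3 stands out in erythroid (1.95) and ventricular (0.85) markers.

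Several marker lists differed between the arrays beside the sodium channel genes. Adipocyte markers (13 genes) stood lowest in control 1 (-0.85) and highest in RAP 3 (1.40), the arrays with the highest and the lowest Scn4b signal, and 6 of the 13 rose with RAP. Adipoq, the adipocyte hormone adiponectin, had log2 signals of 4.58, 5.91 and 8.41 in controls 1, 2 and 3 and 6.18, 6.64 and 9.36 in RAP 1, 2 and 3, a rise of 1.09 (limma SE 0.21). Thrsp, a regulator of lipid synthesis (1.75), and Pck1, the enzyme of glyceroneogenesis (0.95), were the other leading rises. All 6 lost their calls without the pair as a block. Adipoq, Thrsp, Pck1, Cidec and Pparg lost them by the methods' paired t-test and in every fit without 1 array, which has no block. Without control 3 alone the values were 2.15 (SE 0.98) for Adipoq, 2.68 (SE 1.49) for Thrsp and 1.34 (SE 0.75) for Pck1. The adipocyte list stood at -0.85 in control 1 and -0.43 in RAP 1, and at -0.35 and -0.11 in pair 2. In pair 3 it stood at 0.35 in the control and 1.40 in RAP. Scn4b differed by -1.075, -0.77 and -0.88 in pairs 1, 2 and 3. Whether fat in the samples contributed to the Scn4b values was not tested.

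The 12 Schwann cell markers lay between -0.11 and 0.12 on the 6 arrays, while Scn7a spanned 1.83 log2 units. Gldn, a protein of peripheral nerve nodes, was the 1 gene past the thresholds (0.52, SE 0.19), but it was kept only through RAP 1 and RAP 3, where it is highest, and it passed in 8 of 17 alternatives. The 13 neuron markers lay between -0.16 and 0.27 with 0 past the thresholds by limma, and Th, the enzyme of noradrenaline synthesis, between 4.82 and 5.09. Skeletal muscle markers lay between -0.25 and 0.18, and Mylpf, chosen as their defining gene, was not analysed here.

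The remaining lists varied with single arrays. Of 12 atrial markers 1 rose, Pam, a membrane protein of atrial granules (0.43, SE 0.15), and 11 changes were above 0, with a median of 0.19. Pam passed in 14 of 18 alternatives, but not without pair 1, pair 2 or control 2 alone, nor by the methods' paired t-test. Of 11 ventricular markers 1 rose, Kcne1, a potassium channel β subunit (0.39, SE 0.15), and 8 changes were above 0, with a median of 0.08. Without control 3 alone Kcne1 stood at 0.38 (SE 0.17) and was not past the thresholds. Of 16 fibroblast markers the mean deviation was lowest in RAP 2 (-0.57) and highest in control 2 (0.51), and 2 fell, Fbln1 (-0.88, SE 0.32) and Wt1 (-0.85, SE 0.19), which also marks the epicardium. Fbln1 passed in 8 of 18 alternatives, and Wt1 in 9, not among them the fit without the pair as a block, the methods' paired t-test or any fit without 1 array (-1.12, SE 0.52 without control 3). Col1a1, the collagen that defines the list, did not pass (-0.80, SE 0.53), but did without pair 3 (-1.53, SE 0.30), without control 3 alone (-1.20, SE 0.46) and with array weights. For 16 macrophage markers the extremes were -0.65 (RAP 2) and 1.01 (control 2), and Scn7a was highest in RAP 2 and lowest in control 2. The fibroblast list had its extremes on the same arrays, and the atrial list was highest in RAP 2 (0.35) and lowest in control 2 (-0.26). The part of these lists in the Scn7a values was not tested. Csf1r, the macrophage growth factor receptor, lay between 9.27 and 10.4 and passed only without pair 3 (-0.66, SE 0.23). Of the macrophage, endothelial (12) and erythroid (7) markers 0 passed by limma, with medians of -0.42, 0.08 and -0.69. Pecam1 of endothelium lay between 9.44 and 10.1. Alas2, the erythroid heme enzyme, was 11.9 in control 3 and 8.92 to 9.78 on the other arrays.

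The genes most like Scn4b and Scn7a over the 6 arrays were found by Pearson's correlation among 2082 genes whose signal spanned at least 1 log2 unit, as a description. For Scn4b these were Itpkb, a kinase of inositol trisphosphate (r = 0.984), the transcription factor Sox4 (0.975), the lipid transporter Abca3 (0.972), Mmd (0.969) and Chrd, the BMP antagonist chordin (0.966). All 5 were lower with RAP past both thresholds, with changes of -0.51, -0.56, -0.54, -0.54 and -0.50. They were picked for following Scn4b on these same arrays, so their direction follows from the choice and is no separate evidence. For Scn7a they were Slc16a1, the lactate transporter MCT1 (r = 0.995), the quinone reductase Nqo2 (0.979), Prkg1, the cGMP-dependent kinase (0.972), the protease Prss12 (0.968) and the matrix protein Omd (0.96), of which 0 passed by limma. With 6 arrays, 9 genes reached an r over 0.95 with Scn4b and 7 with Scn7a, and the arrays share pairs and tissue composition. Scn4a, Scn2b and Scn3b spanned 0.51, 0.53 and 0.57 log2 units and were not compared.

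**Figure D5:**
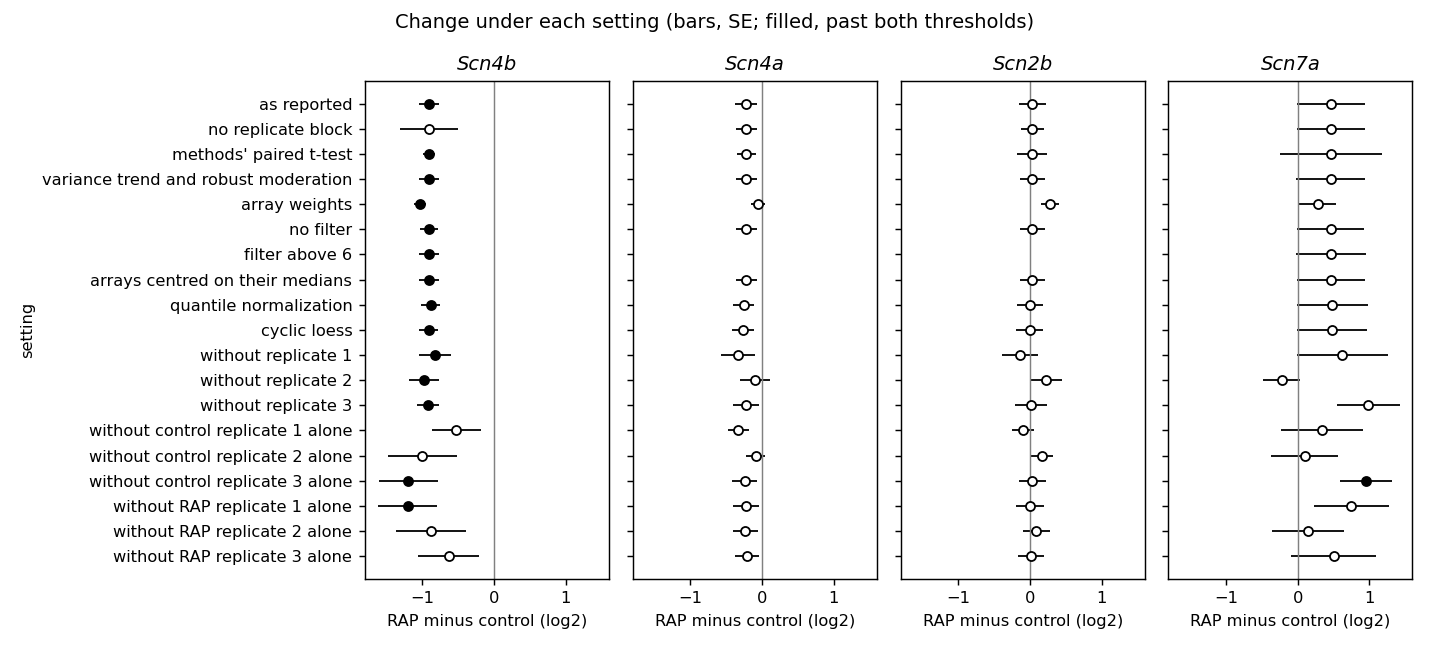
Change (RAP minus control, log2, with SE bars) of Scn4b, Scn4a, Scn2b and Scn7a as reported and under 18 other settings, with filled points past both thresholds. Scn4b is below 0 in every setting plotted. It loses its call without the pair as a block and in 4 of the 6 fits without 1 array, which also lack the block. Scn7a changes side without replicate 2, and no point is drawn for Scn4a and Scn2b with the stricter signal level, which removes them.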

How the data were processed

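Total RNA of the left atria of 3 RAP and 3 control rats had been hybridized to Affymetrix whole-transcript rat arrays, 1 per rat. The deposited values are log2 signals that the authors made in Partek Genomics Suite by RMA with default parameters, which corrects background, normalizes arrays by quantiles and summarizes probe sets. The software version is not given in the sources used here. Values were used as deposited.

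Of 29214 probe sets, 15310 carry 1 gene symbol, 323 several and 13581 none. Those brighter than 5 on any array numbered 19907 and were analysed, and for a gene with several the one of highest mean was taken (11237 genes). limma 3.58.1 in R 4.3.3 was fitted to all kept probe sets with a pair term and eBayes (2 residual and 2.76 prior degrees of freedom), and p-values were adjusted by Benjamini and Hochberg's method. Calls need p under 0.05 before adjustment and over 1.3-fold change. The SE and 95% intervals are limma's. The test was checked on simulated data.

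The study's methods describe pairs, the labels give only replicate numbers, and rats of equal number were taken as a pair. With these pairs the methods' paired t-test passed 395 probe sets, the number the study reports. The study also reports similarity within pairs in a principal component analysis. Deviations from the group means were correlated within pairs at 0.22, -0.24 and -0.32 across probe sets, so the values do not show paired arrays to be alike in pairs 2 and 3. The members and lists were chosen with earlier results of these data known, and the lists come from textbook knowledge. Named are the 5 members, list genes past the thresholds (up to 6 per pathway list and 3 per marker list, by size), defining genes, and the 5 genes most like each member that spans 1 log2 unit. Promoters are from RefSeq (GRCr8), which held 4 of the 5 members. Scn3b was not among them. With 3 arrays per group their number limits the precision, and a two-sided p cannot go below 0.25 by sign flips of pairs or 0.1 by permutation of arrays. The alternatives tried were no block, the methods' paired t-test, a variance trend with robust moderation, array weights, and no filter or a filter at 6. Others were 3 scalings and leaving out each pair or array. The fits without 1 array had no pair block.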

Additional observations from a re-analysis of the deposited data

How the results depend on the processing

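Under the 18 alternatives Scn4b stayed lower with RAP in each and passed both thresholds in 13. Without the replicate block, that is without the pairing, its change was -0.91 with a limma adjusted p of 0.579 and did not pass. Leaving out a pair or an array gave -1.20 to -0.53. It did not pass without control 1 (-0.53), control 2 (-1.001), RAP 2 (-0.8825) or RAP 3 (-0.6363) alone. These fits had no pair block, so leaving out the array and leaving out the block cannot be told apart in them. By the methods' paired t-test Scn4b passed. With array weights, which put most weight on pair 1, its change was -1.03 with a limma adjusted p of 0.0368. The weights were 4.91 for the arrays of pair 1, 0.62 for pair 2 and 0.33 for pair 3. In that fit 4393 of 19907 probe sets passed both thresholds. The lowest adjusted p of Scn1a over its alternatives was 0.0368 as well. Over the alternatives the adjusted p of Scn4b ran from 0.0368 to 1.0. Leaving out a pair or an array moved Scn7a between -0.22 and 0.98 (0.95 and past the thresholds without control 3 alone) and Scn2b between -0.14 and 0.22, and Scn2b was below 0 without pair 1 (-0.14), control 1 alone (-0.09896) or RAP 1 alone (-0.0023). Scn4a passed in 0 of 17 limma and t-test alternatives (-0.33 to -0.05). Scn3b could be fitted only without the filter, in settings mostly added after the data were seen, and passed in 6 of 10, with 0.34 to 0.46. Each member has 1 probe set, so no other could be tried. The block changed no other call among the 4 members above the signal level.

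The number of probe sets past the thresholds, 1180, was 395 by the methods' paired t-test, 4393 with array weights, and 278 to 3887 with a pair or an array left out (751 without control 1, 2480 without control 3 and 1807 without RAP 3 alone). For genes these were 718, 234, 2650, and 164 to 2488 (408, 1731 and 1144 without the same arrays). With all arrays and no block 1335 probe sets and 870 genes passed. Partners that rose, 5, numbered 1 by the methods' paired t-test, 12 with array weights and 1 to 14 with a pair or an array left out (2, 3 and 9 without control 1, 2 or 3 alone, and 3 and 9 without RAP 2 or 3 alone). Partners that fell, 0, numbered 1 with array weights (Cask), 1 with no filter (Ptprz1) and 0 to 1 with a pair or an array left out. Cask and Ptprz1 were named after their values were seen. The causes were not tested. Signals near or under 5 in Scn4a, Scn2b, Scn3b and Scn1a limit what the arrays can show for these genes.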
